A study of Mus musculus with 2 samples.

Results

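The Rab GTPases of mouse small intestine are described here in 2 poly(A)-selected RNA-seq libraries. Members were all genes of both deposited gene tables that GENCODE M21 lists as protein-coding under a symbol made of Rab, a number and at most a letter and a digit. The rule found 59 of 43346 Ensembl genes, 21474 of which matched a protein-coding gene. The libraries are biological replicates 1 and 2 of a single group, small intestine of adult C57BL/6J mice, an inbred strain, at 8 weeks of age, with tissue of male and female littermates pooled. The labels give each replicate its own biosample but a donor entry for the strain rather than for an animal, and name neither a treatment nor a segment of the intestine. With n = 2 and no second group, no test between groups was possible, and each difference below is one between these 2 libraries.

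Rab proteins are small GTPases that sit on the membranes of particular organelles and switch between a GDP-bound and a GTP-bound state. Exchange factors load GTP, and the active Rab then binds effectors that bud, move, tether or fuse vesicles. GTPase-activating proteins end the active state. A lipid attached to cysteines at the end of the protein anchors it in the membrane, and chaperones lift the inactive form off. In the intestine Rab proteins carry brush border enzymes and transporters to the apical surface, recycle receptors, and release mucus, antimicrobial peptides and hormones.

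Replicate 1 held 45472946 and replicate 2 held 45822403 expected counts, which are estimated fragments and need not be whole. Epithelial markers (7 of 7) and enterocyte markers (8 of 8, among them the brush border protein gene Vil1 and the lactase gene Lct) were present in both libraries at 1 TPM or more, TPM being a length-corrected level scaled to a fixed total. The libraries stood apart in RNA of neighbouring organs. The 16 exocrine pancreas markers summed to 26.69% of TPM in replicate 1 and 0.1753% in replicate 2, and the 10 stomach markers to 1.975% and 0.005149%. The 12260 genes whose mean was 1 TPM or more, called the comparison set below, include 50 Rab genes. The median gene of the set lay 0.66 log2 units higher in replicate 2. Ratios below are log2((TPM + 1) / (TPM + 1)), replicate 2 over replicate 1, minus that shift, and are called centred. The pseudocount of 1 shrinks the ratio of low genes before the shift is subtracted. Their centred ratios are thus drawn towards a value 0.66 below zero, and a rise can read as negative. Rab5a, at 0.95 and 1.69 TPM in replicates 1 and 2, had a centred ratio of -0.20.

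Most Rab genes were expressed. A level of 1 TPM or more in each library, here called detected, was reached by 43 of the 59 (72.9%), against 49.3% of all protein-coding genes. Their summed level was 1093 and 2168 TPM in replicates 1 and 2 (1631 ± 760, SD, n = 2), or 0.1093% and 0.2168% of all TPM. In bulk tissue, fewer cells of a type and less RNA per cell cannot be told apart. Over these genes 92008 and 135556 counts were assigned.

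The level was held by few genes. Rab11b, Rab5c, Rab1b, Rab25 and Rab14 together took 48.8% of Rab TPM in replicate 1 and 55.0% in replicate 2. Most of the Rab14 level in replicate 2 was a short non-coding transcript, described below. The coding transcripts of Rab14 were at 19.7 and 44.6 TPM in replicates 1 and 2. A mean of 10 TPM or more was reached by 25 members and of 50 or more by 6. In replicate 1 the order from the top was Rab5c, Rab11b, Rab1b, Rab25 and Rab3d, and in replicate 2 it was Rab11b, Rab5c, Rab1b, Rab14 and Rab25. Rab5c was above Rab1b and Rab1b above Rab25 in both libraries, while Rab11b and Rab5c changed places. The ranges of these 4 genes over the libraries overlapped, and these ranges include the shift common to most genes. At the other end 9 members had a mean TPM under 1. Rab9b had no count in either library, where 3 counts, the limit that a count of 0 allows, correspond to 0.0158 and 0.0202 TPM.

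**Figure D1:**
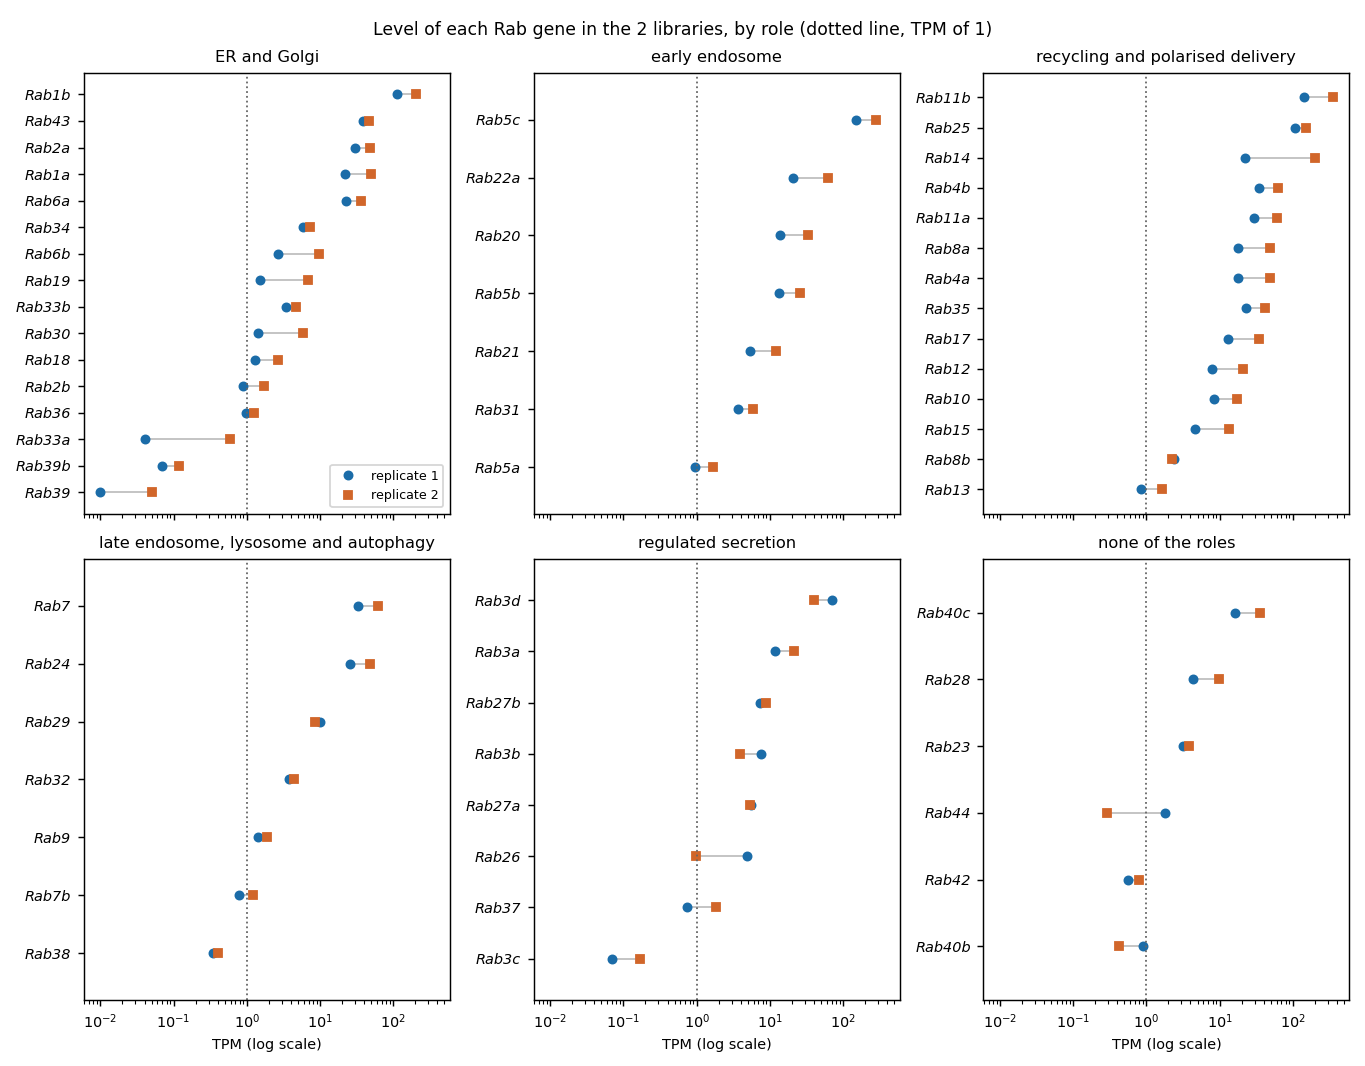
TPM of each Rab gene (log axis) in replicate 1 (circles) and replicate 2 (squares), in 6 panels by role, with the value of both libraries joined by a line; Rab9b, at 0, is not drawn. Most members lie further right in replicate 2, before any centring, while 8 lie further left, namely Rab3d, Rab3b, Rab26, Rab44, Rab29, Rab27a, Rab8b and Rab40b.

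Genes of recycling and polarised delivery held the largest part. These 14 genes mostly route cargo from endosomes and the Golgi back to the cell surface, in epithelia to the apical or basolateral side. Rab12, described below, is an exception. The 14 genes summed to 429.6 and 1054 TPM in replicates 1 and 2 (742 ± 441, SD, n = 2), which was 39.3% and 48.6% of Rab TPM. By counts the shares were 33.0% and 39.7%. Over coding transcripts the sums were 371.2 and 812.0 TPM, of 973.1 and 1890.5 TPM over all members. All but Rab13 were detected. Their median centred ratio was 0.49, with 11 above and 3 below the median gene, next to a median of 0.16 over the 50 Rab genes and of 0 over the comparison set by construction. Enterocyte markers had a median centred ratio of 1.58 (7 of 8 above zero) and the epithelial markers 0.92 (6 of 7 above zero). Their part in the values of the recycling genes was not tested.

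Rab11b, which acts at the recycling endosome, had the highest mean of all members (ENSMUSG00000077450.8, chr17:33742484-33760530, GRCm38). Its level was 142.5 and 351 TPM in replicates 1 and 2, from 9095 and 17946 counts. Its processed pseudogene Rab11b-ps2, on chromosome 19, was listed at 13.2 and 34.9 TPM, so some fragments may have been divided between the copies. Rab25, the epithelial relative of Rab11 (ENSMUSG00000008601.8, chr3:88542029-88548300), was at 105.6 and 151 TPM. Rab11a, which delivers apical cargo with the motor myosin Vb, was at 29.5 and 60.7 TPM, of which coding transcripts held 20.8 and 40.7 TPM. In both libraries Rab11b was the highest and Rab11a the lowest of this family.

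The proteins of this family differ at a known site. In the third GTP-binding motif most Rab proteins carry a glutamine that takes part in GTP hydrolysis. The motif was searched in a form that allows alternative residues beside the site, as in Rab7b and Rab28. It was found in all 58 members whose principal coding sequence (the isoform that the annotation ranks first) was among the quantified transcripts. Of these, 55 had a glutamine codon at the site. The 3 others were Rab25, Rab20 and Rab24. The motif's 21 coding bases from GENCODE M21 transcripts (GRCm38) are shown for these 3 and for both close relatives of Rab25, with the codon of that site in capitals.
Rab25: tgggacacggccggcCTGgag
Rab20: tgggacaccgcagggCGGgag
Rab24: tgggacacagcaggtTCCgag
Rab11a: tgggacacagcagggCAGgag
Rab11b: tgggacactgctggcCAGgag

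The capital codons encode leucine in Rab25, arginine in Rab20, serine in Rab24 and glutamine in Rab11a and Rab11b. All of these 5 genes were detected, Rab20 at 13.9 and 33.3 TPM and Rab24 at 25.6 and 48.2 TPM. Over the aligned residues Rab11a and Rab11b were 91.2% identical, whereas Rab25 shared 62.3% with Rab11a and 67.7% with Rab11b.

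Other genes of apical and recycling transport lay below the Rab11 family. Rab8a, needed for apical delivery in enterocytes, was at 18.1 and 48.2 TPM, and its copy Rab8b at 2.39 and 2.24 TPM. Rab17, a Rab of epithelial transcytosis, was at 13 and 34.8 TPM. Rab4b and Rab4a, which act in fast recycling from early endosomes, were at 34.3 and 63.4 TPM and at 17.9 and 48.3 TPM. Rab8a, Rab17, Rab4a and Rab15 had centred ratios from 0.69 to 0.72, and Rab8b had the lowest of the role at -0.73. Rab35 (endocytic recycling) was at 22.9 and 41.9 TPM, and Rab15 (receptor recycling) at 4.56 and 13.4 TPM. Rab13, known from tight junctions, was at 0.84 and 1.63 TPM. Rab10, which serves basolateral and regulated surface delivery, was at 8.43 and 17.6 TPM, while the antisense gene Rab10os that overlaps it was higher, at 23.04 and 34.04 TPM. The library kit kept strand per the labels, but whether the quantifier used it is not given in the sources used here.

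Rab14 showed the widest gap of the members by gene TPM with this pseudocount, and most of it lay in a short transcript. By TPM with a pseudocount of 0.1, Rab26 and Rab44 had wider gaps. By TMM-scaled counts many members did. The widest there were Rab26 (-2.34), Rab44 (-1.99), Rab3b (-1.46), Rab3d (-1.15) and Rab19 (1.10). Rab14, which acts between the Golgi and endosomes (ENSMUSG00000026878.12, chr2:35180205-35201120, GRCm38), had 21.9 TPM in the first library and 198.3 TPM in the second, a centred ratio of 2.46. It was 1 of 50 members more than 2-fold higher in replicate 2 by gene TPM, where 5.03% of the comparison set were. Its counts, 2918 and 5948, lay closer together, at a centred ratio of 0.57 with TMM scaling (edgeR's trimmed-mean normalisation of counts). The transcript Rab14-203, a processed transcript of 355 nt without a coding sequence, had 1.56 TPM in replicate 1 (9.45 counts) and 151.9 TPM in replicate 2 (822.7 counts). It made up 7.11% of the gene's TPM in replicate 1 and 76.6% in replicate 2. The coding transcript Rab14-201 was at 19.7 and 44.6 TPM. Over protein-coding transcripts only, the centred ratio of Rab14 was 0.47.

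The second and last exon of Rab14-203 is what its count rests on, since the first is shared with other transcripts of the gene. It lies at chr2:35199874-35200009 on the minus strand (GRCm38), 136 bases within an intron of Rab14-201, and no other quantified transcript contains it. It is shown from GENCODE M21 in the direction of the gene.
Rab14-203 exon 2: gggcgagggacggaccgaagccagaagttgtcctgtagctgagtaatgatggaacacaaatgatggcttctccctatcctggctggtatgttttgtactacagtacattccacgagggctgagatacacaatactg

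The effective length of Rab14-203, its length less most of a fragment's, was 119.4 and 137.5 nt in replicates 1 and 2. At such a length each count weighs much more in TPM than in the coding transcript, whose effective length was 2845 and 2863 nt. The deposited credibility intervals of Rab14-203, 0.578 to 3.28 TPM and 138 to 162 TPM, did not overlap. Their level is not stated in the files, and they cover quantification error, not the spread between animals.

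Genes of the early endosome, where internalised cargo arrives first, were led by Rab5c. The 7 genes summed to 207.3 and 428.4 TPM (318 ± 156, SD, n = 2), 19.0% and 19.8% of Rab TPM, and 6 were detected. Rab5c, a fusion factor of early endosomes (ENSMUSG00000019173.7, chr11:100715009-100738215), was at 149.6 and 286.7 TPM, a centred ratio of 0.27. Its paralogues were much lower, Rab5b at 13.3 and 26.02 TPM and Rab5a at 0.95 and 1.69 TPM. Rab5c therefore held 91.3% and 91.2% of the family, Rab5b 8.12% and 8.28%, and Rab5a 0.58% and 0.54%, a split that differed by less than 1 percentage point between the libraries. The proteins are 81.9% to 87.9% identical to each other over aligned residues. Rab22a, which sorts cargo in early endosomes, was at 20.6 and 62.7 TPM, with a centred ratio of 0.90 by TPM and 0.47 by TMM-scaled counts. Rab21, linked to integrin uptake, was at 5.29 and 12.04 TPM and Rab31, linked to transport between Golgi and endosomes, at 3.63 and 5.88 TPM.

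In the ER and Golgi group 16 genes summed to 246 and 425.7 TPM (336 ± 127, SD, n = 2), 22.5% and 19.6% of Rab TPM, with 11 detected. Their median centred ratio was -0.02, and 6 of 13 lay above zero. Rab1b, which drives transport from the ER to the Golgi (ENSMUSG00000024870.5, chr19:5099205-5107072), was at 114.2 and 205.5 TPM. Its paralogue Rab1a, 92.5% identical over aligned residues, was at 22.2 and 49.0 TPM, so that Rab1b held 83.7% and 80.8% of the pair. Rab2a, of the same transport step, was at 30.4 and 47.5 TPM and held 97.2% and 96.5% against Rab2b. Rab43, a Golgi Rab, was at 38.1 and 46.7 TPM. Rab6a, which serves retrograde transport through the Golgi, was at 22.9 and 36.3 TPM.

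Among the lower members of this group, Rab6b was at 2.67 and 9.66 TPM, Rab19 at 1.51 and 6.81 TPM and Rab30, a Golgi Rab, at 1.40 and 5.77 TPM. Their centred ratios were 0.87, 0.97 and 0.83. Of the Rab6b level, 87.0% and 87.8% lay in Rab6b-202, a transcript of 716 nt with 80 codons. Rab6b-201, with 208 codons, was at 0.35 and 1.18 TPM. Rab19 passed 2-fold by TMM-scaled counts (103 and 364 counts, centred ratio 1.10) but not by TPM. Rab34 and Rab33b, both Golgi Rab genes, were at 5.93 and 7.37 TPM and at 3.45 and 4.70 TPM, with centred ratios of -0.39 and -0.31. Rab33a, Rab39 and Rab39b stayed under 1 TPM in both libraries.

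Rab6a is made in 2 coding forms that differ in a single exon. The alternative forms of exon 4, 106 bases each, lie side by side on the plus strand of chromosome 7 at chr7:100629838-100629943 (Rab6a-201) and chr7:100629666-100629771 (Rab6a-202). They differ at 30 bases and change 3 of 208 residues. Both are printed from GENCODE M21 (GRCm38), with the bases that differ in capitals.
Rab6a-201 exon 4: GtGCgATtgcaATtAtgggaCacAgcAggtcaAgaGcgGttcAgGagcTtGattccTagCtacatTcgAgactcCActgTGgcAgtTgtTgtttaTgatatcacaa
Rab6a-202 exon 4: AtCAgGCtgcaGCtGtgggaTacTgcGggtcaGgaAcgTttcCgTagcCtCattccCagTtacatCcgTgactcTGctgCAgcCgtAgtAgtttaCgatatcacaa

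Rab6a-202 took 70.9% of the gene's TPM in replicate 1 and 70.3% in replicate 2, and Rab6a-201 took 29.1% and 29.7%. This split differed by less than 1 percentage point although the gene's TPM differed. For Rab1a the estimated split was less even. Rab1a-203, whose coding sequence has 138 codons against 202 in Rab1a-201, took 70.4% and 56.7% of the gene's TPM, and Rab1a-201 took 28.3% and 41.1%. Rab1a-203 lacks the third and the fourth exon of Rab1a-201, 96 bases each. The fourth, at chr11:20223084-20223179 on the plus strand, begins with the third GTP-binding motif, shown here in capitals.
Rab1a-201 exon 4: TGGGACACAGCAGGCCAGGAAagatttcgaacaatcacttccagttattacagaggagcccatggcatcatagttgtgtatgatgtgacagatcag

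These shares are the quantifier's division of fragments between transcripts that overlap along most of their length. In Rab40c, a subunit of ubiquitin ligases, such a division differed between coding transcripts of similar length. Rab40c-201 held 51.2 counts in replicate 1 and 825.8 in replicate 2, while Rab40c-209 held 294.6 and 0. The credibility intervals of Rab40c-209 overlapped between the libraries, and those of Rab40c-201 did not. The gene as a whole was at 16.4 and 35.5 TPM, a centred ratio of 0.40.

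**Figure D2:**
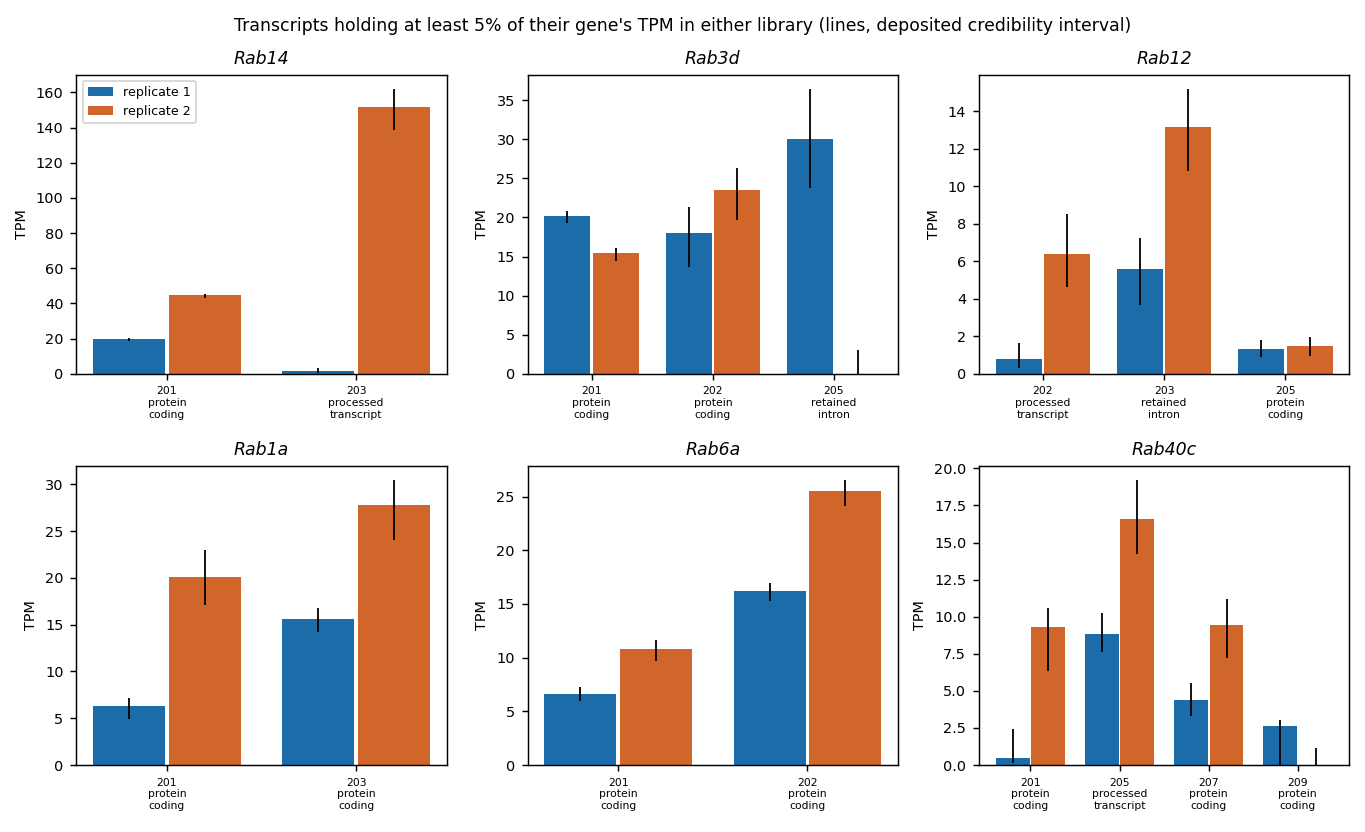
TPM of the transcripts that hold at least 5% of their gene's TPM in either library, for 6 Rab genes, in replicate 1 (blue) and replicate 2 (orange); lines span the deposited credibility interval. Rab14-203 is at 1.56 and 151.9 TPM, Rab3d-205 is present in replicate 1 alone, and both Rab6a forms keep their proportion.

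Of the 43 detected members, 39 had a protein-coding major transcript, the one with the highest mean share of the gene's TPM, and 13 had a single quantified transcript. The 4 with a non-coding one were Rab23, Rab12, Rab40c and Rab29, where 13.2% of all detected protein-coding genes were of this kind. Rab12, which sends receptors from endosomes to lysosomes, was at 7.76 and 21.2 TPM, but its protein-coding transcripts were at only 1.34 and 1.66 TPM. Its centred ratio was therefore 0.68 by gene TPM and -0.48 over coding transcripts. Rab12 and Rab14 were the 2 members whose TPM and count ratios lay more than 0.5 log2 units apart, a gap found in 4.61% of the comparison set.

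Late endosome, lysosome and autophagy genes took 75.5 and 126 TPM (101 ± 35.7, SD, n = 2), 6.9% and 5.8% of Rab TPM, and 5 of 8 were detected. Rab7, the main Rab of late endosomes, was at 33.5 and 61.3 TPM and held 97.8% and 98.1% against Rab7b. Rab24, linked to autophagy, overlaps the abundant gene Prelid1 on the opposite strand, which was at 329 and 837 TPM. Rab29, which recruits LRRK2 to the Golgi, was at 10.1 and 8.61 TPM, of which 2.52 and 2.75 TPM came from coding transcripts. Rab32, a Rab of lysosome-related organelles, was at 3.74 and 4.45 TPM, and Rab9, of transport from late endosomes to the Golgi, at 1.40 and 1.90 TPM. The intervals of Rab29, Rab32 and Rab9 overlapped between the libraries.

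Genes of regulated secretion, which dock and release stored granules, were the only role with a lower sum of gene TPM in replicate 2, at 107.9 and 83.3 TPM in replicates 1 and 2 (95.6 ± 17.4, SD, n = 2). Over coding transcripts the direction turned, with sums of 73.3 and 80.2 TPM. Their share of Rab TPM was 9.9% and 3.8%, and by counts 8.3% and 4.0%. The median centred ratio of its 7 genes in the comparison set was -0.70, with 2 above and 5 below zero. Over the whole family 4 members were more than 2-fold higher in replicate 1, where 6.32% of the comparison set were, and 3 of these 4 belonged to this role. The 3 were Rab3d, Rab3b and Rab26, and the fourth was Rab44. Rab26 and Rab44 were at 0.97 and 0.29 TPM in replicate 2 and entered the comparison set through their level in replicate 1. The count of 4 thus rests partly on that filter. With a TPM minimum of 5, 2 members were more than 2-fold higher in replicate 1.

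Rab3d, found on secretory granules of exocrine cells (ENSMUSG00000019066.9, chr9:21907491-21918192, GRCm38), had 69.8 TPM in the first library and 40.7 TPM in the second. Its counts were 4589 and 2789 and its centred ratio -1.43. Of the TPM in replicate 1, 29.99 came from Rab3d-205, a retained-intron transcript of 429 nt with 294.9 counts in replicate 1 and 0 in replicate 2. The protein-coding transcripts were at 39.9 and 40.7 TPM, which left a centred ratio of -0.63, short of 2-fold. Of these, Rab3d-201, with 219 codons, was at 20.2 and 15.5 TPM in replicates 1 and 2 (3693 and 2210 counts). Rab3d-202, of 694 nt with 136 codons, was at 17.95 and 23.6 TPM. By TMM-scaled counts, which include all transcripts, the centred ratio of Rab3d was -1.15. The last 105 bases of the second exon of Rab3d-205, at chr9:21915615-21915719 on the minus strand, are printed from GENCODE M21 with the 90 bases that are intron in Rab3d-201 in capitals.
Rab3d-205: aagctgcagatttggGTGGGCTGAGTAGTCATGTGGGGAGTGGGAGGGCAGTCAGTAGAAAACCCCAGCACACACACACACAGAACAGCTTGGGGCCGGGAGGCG

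Rab3b, an exocytic paralogue of Rab3d, was at 7.61 and 3.94 TPM (429 and 179 counts), with a centred ratio of -1.47 on the scale of gene TPM and -1.46 over coding transcripts. Rab26, known from secretory granules, was at 4.87 and 0.97 TPM (307 and 41 counts), a centred ratio of -2.24 by TPM and -2.34 by TMM-scaled counts. Over coding transcripts it was at 2.44 and 0.94 TPM, a centred ratio of -1.49, as the retained-intron transcript Rab26-205 held 2.04 TPM in replicate 1 and 0 in replicate 2. It overlaps the more abundant gene Traf7 (60.6 and 91.6 TPM) on the same strand. Rab44, a large Rab known from mast cells, was at 1.77 and 0.29 TPM (198 and 29 counts), a centred ratio of -1.77.

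The other secretory members differed less. Rab3a, the Rab of neuronal and endocrine vesicles, was at 11.9 and 21.5 TPM, a centred ratio of 0.14. Rab27b and Rab27a, which dock granules at the plasma membrane, were at 7.32 and 8.77 TPM and at 5.58 and 5.42 TPM, with centred ratios of -0.43 and -0.70. Rab37, also of secretory granules, was at 0.73 and 1.84 TPM, and Rab3c at 0.07 and 0.17 TPM. Within the Rab3 family the share of Rab3d was 78.1% and 61.3% and that of Rab3a 13.3% and 32.5%. Over coding transcripts these shares were 67.0% and 61.7% for Rab3d and 20.1% and 32.1% for Rab3a.

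Markers of several cell types also differed between the libraries. All 16 exocrine pancreas markers were higher in replicate 1, with a summed level of 266899 and 1753 TPM and a median centred ratio of -9.56, and no marker was at 0 in either library. The 8 stomach markers in the comparison set were all higher in replicate 1, and the list summed to 19753 and 51.5 TPM. For the intestine's own secretory cells the sums, which are not centred, were 2231 and 9820 TPM for the 5 Paneth cell markers, 11870 and 24215 TPM for the 6 goblet cell markers and 489 and 771 TPM for the 7 enteroendocrine markers. Their median centred ratios were 1.35, 0.47 and 0.18. Of the markers in the comparison set, 5 of 5, 5 of 6 and 3 of 5 lay above zero. The enteroendocrine marker Cck was more than 2-fold higher in replicate 1, at a centred ratio of -1.20. Outside the epithelium the marker lists went both ways relative to the median gene. Plasma cell markers had a median centred ratio of 0.19 (4 of 5 above zero), and the lists that follow were mostly lower in replicate 2. The median centred ratio was -0.88 for smooth muscle (6 of 6 below zero), -0.37 for macrophages (4 of 5) and -0.33 for enteric neurons (4 of 5 in the comparison set). For T cells it was -0.30 (4 of 5 below zero). The part of any of these cells in the levels of the secretory Rab genes was not tested.

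**Figure D3:**
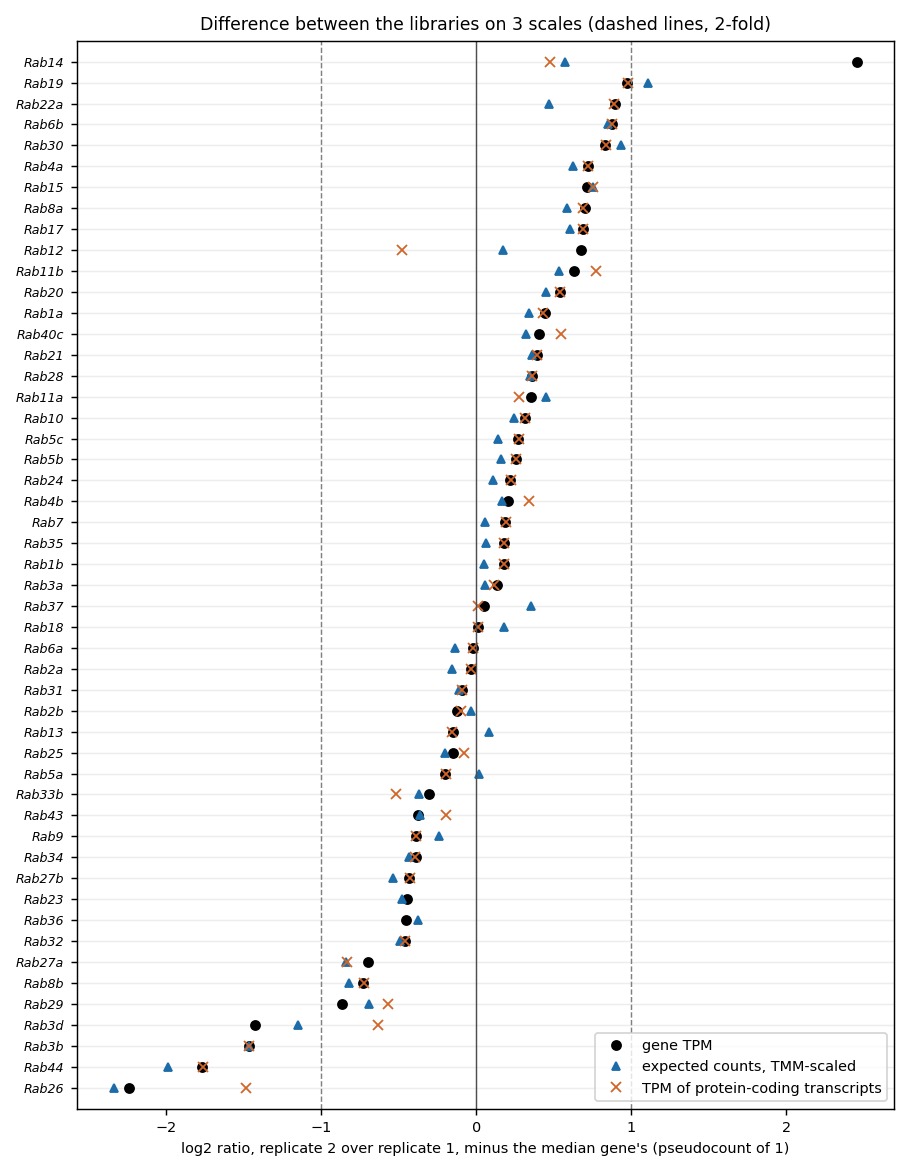
Centred log2 ratio of the 50 Rab genes in the comparison set, by gene TPM (circles), TMM-scaled counts (triangles) and TPM of protein-coding transcripts (crosses, where these average 1 TPM or more). Rab14 stands past 2-fold by gene TPM alone, Rab3d lies within 2-fold over coding transcripts, and Rab26, Rab44 and Rab3b lie past it on all 3 scales.

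By TMM-scaled counts 1 member (Rab19) was more than 2-fold higher in replicate 2 and 4 in replicate 1, with 4.54% and 6.13% of the comparison set as background. Over coding transcripts there were 0 and 3, with 4.57% and 5.74%. On these 3 scales the share of members past 2-fold was near or below that of all genes. Of the 50 members 28 had centred ratios above zero and 22 below, while without centring 43 were higher in replicate 2. With a pseudocount of 0.1, and by TMM-scaled counts, 30 lay above zero and 20 below. Credibility intervals were apart in 40 members, in 36 with replicate 2 above and in 4 with replicate 1 above, next to 79.9% of the comparison set either way, 73.5% with replicate 2 above and 6.37% with replicate 1 above.

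The last 6 members belong to none of these roles and summed to 27.1 and 50.6 TPM. Next to Rab40c these were Rab28, found at cilia, at 4.27 and 9.72 TPM, and Rab23, a regulator of hedgehog signalling, at 3.17 and 3.85 TPM, of which coding transcripts held 0.48 and 0.44 TPM. Rab42 and Rab40b stayed under 1 TPM in both libraries.

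**Figure D4:**
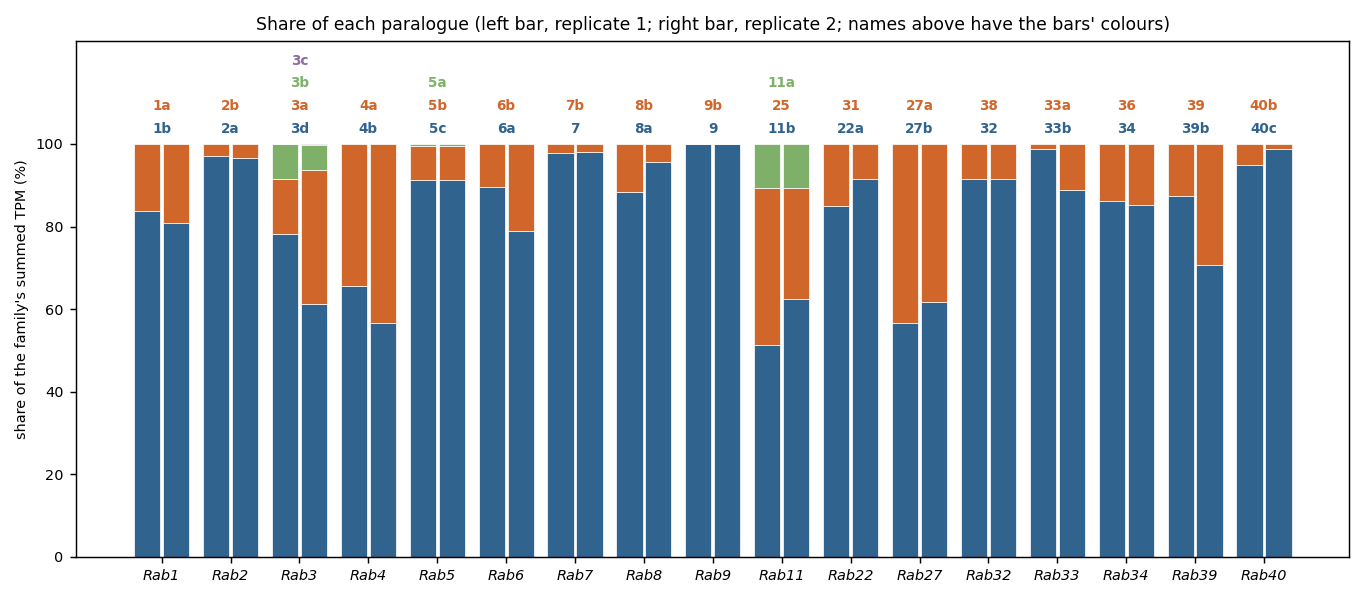
Share of each paralogue in the summed TPM of its family (%), left bar replicate 1 and right bar replicate 2, for 17 families; names above carry the bars' colours. The same member led in both libraries in every family, and the widest shifts among families over 10 TPM were those of Rab3a, from 13.3% to 32.5%, and Rab3d, from 78.1% to 61.3%.

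In each of 17 paralogue families the same member led in both libraries and held over 50% of the summed TPM. In a pair the larger share exceeds 50% by construction. Only the families of Rab3, Rab5 and Rab11, with 3 or 4 members, could fall short of it. Over coding transcripts Rab11b held 49.2% of its family in replicate 1 and 62.5% in replicate 2. In the Rab11 family the share of Rab11b was 51.3% and 62.4% and that of Rab25 38.04% and 26.8%, whereas Rab11a held 10.6% and 10.8%. Rab4b held 65.7% and 56.7% against Rab4a, and by counts 58.8% and 50.7%. Rab8a held 88.3% and 95.6% against Rab8b, and Rab22a 85.0% and 91.4% against Rab31. Rab27b held 56.7% and 61.8% against Rab27a.

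Features of sequence that the choice of members did not use were also compared. Principal coding sequences were 194 to 725 codons long, with a median of 215. The protein ended in cysteine, any residue, cysteine in 20 members and in a pair of cysteines in 15. In 15 others a pair of cysteines was followed by at most 3 residues, and in 8 a single cysteine stood 3 residues from the end. RefSeq start-site windows (GRCm38.p6, 250 bases before to 50 after the start) were matched for 48 members. The ratio of observed to expected CG dinucleotides, a measure of CpG islands, had a median of 0.75 in the members and 0.58 in 17492 protein-coding genes. It was over 0.6 in 75.0% and 48.3% of them. The lowest ratios were those of Rab17 at 0.22, Rab33a at 0.27, Rab42 at 0.30 and Rab25 at 0.37, whereas Rab1b was at 1.03 and Rab14 at 0.97.

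Genes that act on Rab proteins were taken as lists of 114 genes. Of these 92 were detected, where 49.3% of all protein-coding genes were, and the 114 summed to 942 and 1730 TPM. The median centred ratio of the 96 in the comparison set was -0.04, and 1 of them was more than 2-fold apart by gene TPM, higher in replicate 1. This was Mlph, an effector that links Rab27a to a myosin motor, at 20.7 and 14.4 TPM with a centred ratio of -1.16. Of the whole comparison set 11.4% were past 2-fold either way. By TMM-scaled counts 3 of the machinery genes were more than 2-fold higher in replicate 1 and none in replicate 2, next to 6.13% and 4.54% of the comparison set. Over coding transcripts 2 were higher in replicate 1 and 3 in replicate 2, next to 5.74% and 4.57% of all genes.

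The lipid transferase and its helpers (5 of 7 detected) included Rabggta, the alpha subunit that attaches the lipid to Rab cysteines, at 19.7 and 33.2 TPM. The beta subunit gene Rabggtb was at 3.01 and 4.91 TPM. Of the exchange factors 26 of 29 were detected. Mon1a, part of the exchange factor of Rab7, was at 47.4 and 120.7 TPM, but its partner Ccz1 at 1.16 and 2.84 TPM. Of the GTPase-activating genes 26 of 28 were detected, with Tbc1d13, which acts on Rab35, at 38.9 and 70.2 TPM.

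Among effectors 35 of 50 were detected, and those of Rab11 were uneven. Myo5b, the myosin Vb gene whose loss in people causes microvillus inclusion disease, was at 27.4 and 86.7 TPM, with a centred ratio of 0.96 by gene TPM and 0.36 over coding transcripts. Rab11fip3 was at 29.3 and 93.9 TPM (0.98 and 1.05), Rab11fip1 at 10.9 and 23.5 TPM (0.37 and 0.38), and Rab11fip5 at 3.38 and 2.65 TPM (-0.93 and -0.93). Rab11fip2, a further member of the same effector family, stayed under 1 TPM in both libraries. Eea1, the tether of early endosomes that binds Rab5, was at 0.26 and 0.70 TPM. The synaptic Rab3 effectors Rims1 and Rims2 were at 0.31 and 0.46 TPM and at 0.03 and 0.12 TPM.

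**Figure D5:**
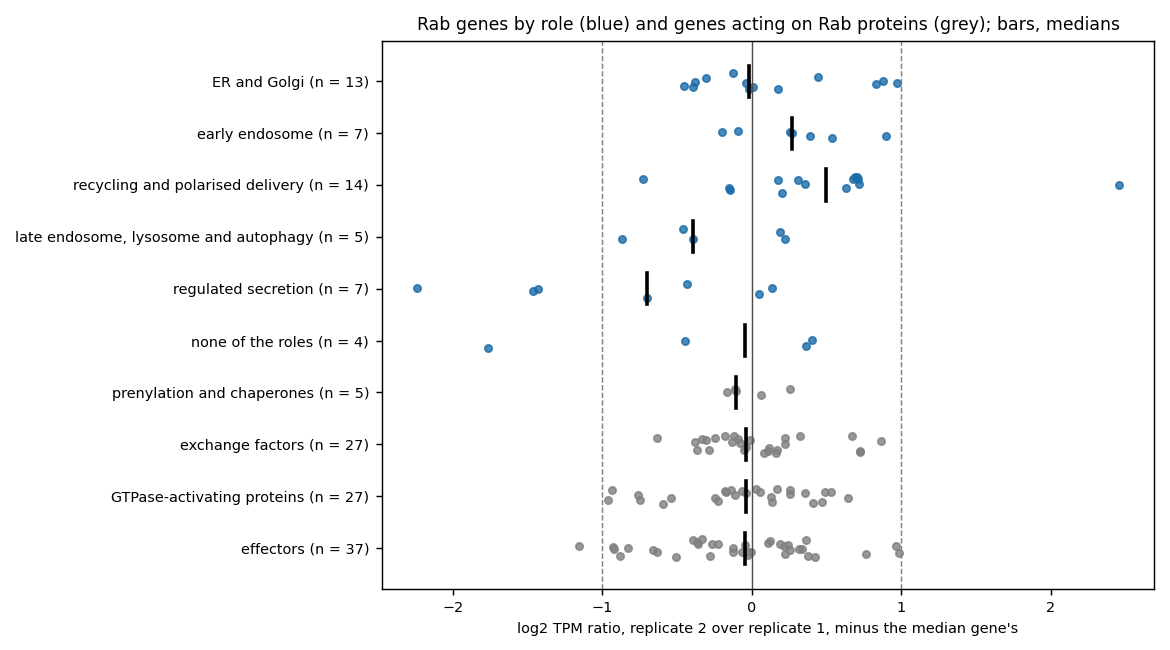
Centred log2 TPM ratio of each gene in the comparison set, for the Rab genes by role (blue) and the genes acting on Rab proteins by class (grey); black bars are medians and dashed lines mark 2-fold. The recycling genes have a median of 0.49 and the secretory genes of -0.70, while the 4 classes of machinery lie between -0.11 and -0.04.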

How the data were processed

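Libraries were made from poly(A) RNA longer than 200 nt after removal of ribosomal RNA and read with strand kept from both ends (76 nt), per the labels. The authors deposited expected counts (estimated fragments), TPM, FPKM, credibility bounds and, for transcripts, the percent of the gene's TPM, in 1 table for each library. The deposited text names mm10 and annotation M4. Which aligner and which quantifier were run is not given in the sources used here. The level of the credibility intervals is not stated in the files. Mean fragment lengths were 237 and 219 nt, which sets the effective length that TPM divides by.

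Symbols, transcript types and sequences came from GENCODE M21 by the stable part of the identifier. It held all 210 transcripts of the members, 189 with the same length, and 9 of the 59 genes in the same version. Python 3.11.15 with pandas 2.3.3 and numpy 2.4.6 gave sums, shares and ratios, tested on simulated data. edgeR 4.0.16 (TMM factors) and DESeq2 1.42.0 (size factors) in R 4.3.3 scaled the counts, rounded to whole numbers for that step, as alternatives. Thresholds were a TPM of 1, a pseudocount of 1 and 2-fold. Other alternatives were TPM minimums, pseudocounts, FPKM, posterior mean TPM, spike-in centring, no centring, rescaled TPM and leaving out a replicate. Any member and any gene of the role, machinery and marker lists could be named. The members and lists were chosen with earlier results of these data known. The sequence features come from translated M21 coding sequences.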

Additional observations from a re-analysis of the deposited data

How the results depend on the processing

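The count of 5 members past 2-fold was the value most open to the processing. The share of all genes past 2-fold under the same setting is given in brackets. The count became 3 of 34 with a TPM minimum of 5 (11.5%) and 3 of 50 with a pseudocount of 5 (7.73%). It was 9 of 50 with a pseudocount of 0.1 (14.6%) and 14 of 58 without a filter on low values (9.55%). Without centring it was 19 of 50 (28%), and with centring on the spike-in RNAs 14 of 50 (15.4%). With the pseudocount of 0.1, no filter, no centring or spike-in centring, the members' share was above that of all genes. Over protein-coding transcripts only, an alternative chosen after the data were seen, the count was 3 of 48 (10.3%). Rab14 had centred ratios of 0.57 by TMM-scaled counts and 0.58 by DESeq2-scaled counts, and Rab3d -0.63 over coding transcripts, all short of 2-fold. The median centred ratio of the members stayed above zero, between 0.07 and 0.51 under 12 alternatives, and was 0.82 without centring. Leaving out a replicate gave 45 to 49 members detected, a summed TPM of 1093 to 2168, 38 members with a coding major transcript and 17 families with a member over 50%. The count of families could change only through Rab3, Rab5 and Rab11, as all other families are pairs. No paired analysis was possible because there is a single group. With 2 libraries, no value here separates differences between animals from differences in how the tissue was taken, and transcripts near the fragment length have unsure TPM.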
